A study of Mus musculus with 29 samples.

Results

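The quantity described here is the change of the genotype difference between 6 and 18 months in the caudate nucleus of HdhQ150 mice. It is the difference HdhQ150 minus wild type at 18 months, less the same difference at 6 months, computed for each of 19938 genes with 1 gene symbol. A value above 0 means that HdhQ150 mice stood higher against their wild-type littermates at 18 months than at 6 months, and a value below 0 the opposite. The members are 18 of the series' 29 mice, chosen by genotype and age in their labels: 5 HdhQ150 and 5 wild-type mice of 6 months, and 4 HdhQ150 and 4 wild-type mice of 18 months. All came from the mixed background 129/Ola x C57BL6/J, none was treated, and each gave 1 array of total RNA. HdhQ150 mice carry an expanded CAG repeat in the mouse huntingtin gene, Htt, and express it wherever Htt is active, so no promoter or Cre limits the model to a cell type. Whether 1 or both copies carried the repeat is not given in the sources used here. The 6-month groups held 4 females and 1 male (HdhQ150) and 3 females and 2 males (wild type) by label, and both 18-month groups held females alone. Mice of different ages were different animals, and the 11 mice of 12 months entered the estimate of the spread and gave the 12-month differences set beside those of the other ages.

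Huntington's disease is caused by an expanded CAG repeat in huntingtin, and the striatum, of which the caudate nucleus is a part, is the region it damages most. Most striatal neurons are inhibitory projection neurons. Those of the direct pathway carry the dopamine receptor Drd1 and the peptides of Pdyn and Tac1, and those of the indirect pathway carry Drd2 and the enkephalin precursor Penk. Lowered transcripts of such identity genes are a known feature of the disease and its models. A change of the genotype difference with age separates a difference that is already present in young adults from one that grows, shrinks or turns as the mice age.

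The 18 arrays had medians from 6.91 to 6.99 in log2 units and correlated by at least 0.963 in every pair. The HdhQ150 mouse 1023 of 6 months went against its label: it was labelled female, with Xist at 5.95 and the Y-linked gene Eif2s3y at 8.30, inside the ranges of the mice labelled male. Mouse WT-454 of 12 months, which enters the spread, the sex term and every 12-month difference, had a mean correlation of 0.945 with its group. Striatal markers were well expressed, with Penk between 11.34 and 12.81 in the 18 mice and group means of Ppp1r1b, which encodes the striatal phosphatase regulator DARPP-32, between 10.79 and 11.37. The cortical glutamate transporter Slc17a7 had group means between 11.13 and 11.45, so the dissected tissue also held cortical transcripts. In tissue RNA, fewer cells of a type and less RNA per cell cannot be told apart.

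No gene passed the test for a change of its genotype difference between 6 and 18 months. Of 19938 genes, 0 passed (0%), and the smallest limma adjusted p was 0.471. At an unadjusted limma p under 0.05 stood 1629 genes (8.17%), of which 993 had values above 0 (4.98%) and 636 below (3.19%). Over all genes, 9252 values lay above 0 (46.4%) and 10686 below (53.6%), with a median of -0.01. The middle of the distribution was narrow: 5% of genes lay below -0.26 and 5% above 0.29, and 86.5% had a size under 0.25. The median standard error was 0.13, and the median half-width of the 95% interval, before adjustment, was 0.27. A smaller change could not be told from 0 for a typical gene even without adjustment. Adjustment over all genes asks for more: the change of 0.71 in Tipin did not pass (limma adjusted p = 0.521). Leaving out any 1 of the 18 mice in turn gave 0 genes each time. Only weighting the arrays by their quality gave any, 6 genes at an adjusted p of 0.0294 each: Ipp, Tipin, Dcaf10 and Mbip above 0, and Kcng1 and Ajap1 below. Dcaf10 and Mbip are named because that setting called them.

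The same fit called 5 genes for the genotype difference at 6 months (0.0251%) and 27 at 18 months (0.135%). Leaving out 1 mouse moved the 6-month count to 188 (1023 out), 18 (WT-454), 13 (WT-1011), 8 (1003) or 3 (1001, 1016, 1017, WT-1002, WT-1004 or WT-1020). It moved the 18-month count to 15 (WT-400), 16 (426) or 41 (415 or WT-454). Over all genes, nearly all of them called at neither age, the differences at 6 and 18 months were nearly unrelated (Pearson 0.02 and Spearman -0.03 over 19938 genes, which are not independent replicates). Of the 27 genes called at 18 months, 10 of 11 higher and 16 of 16 lower had the same sign at 6 months. Among all genes, 10429 lay above 0 and 9509 below at 6 months. Pearson's value was 0.27 between 6 and 12 months and 0.38 between 12 and 18 months. These values were 0.46 and 0.13 without WT-454, and 0.38 and 0.37 without HdhQ150 mouse 453. Which of them was larger therefore rests on single mice.

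**Figure D1:**
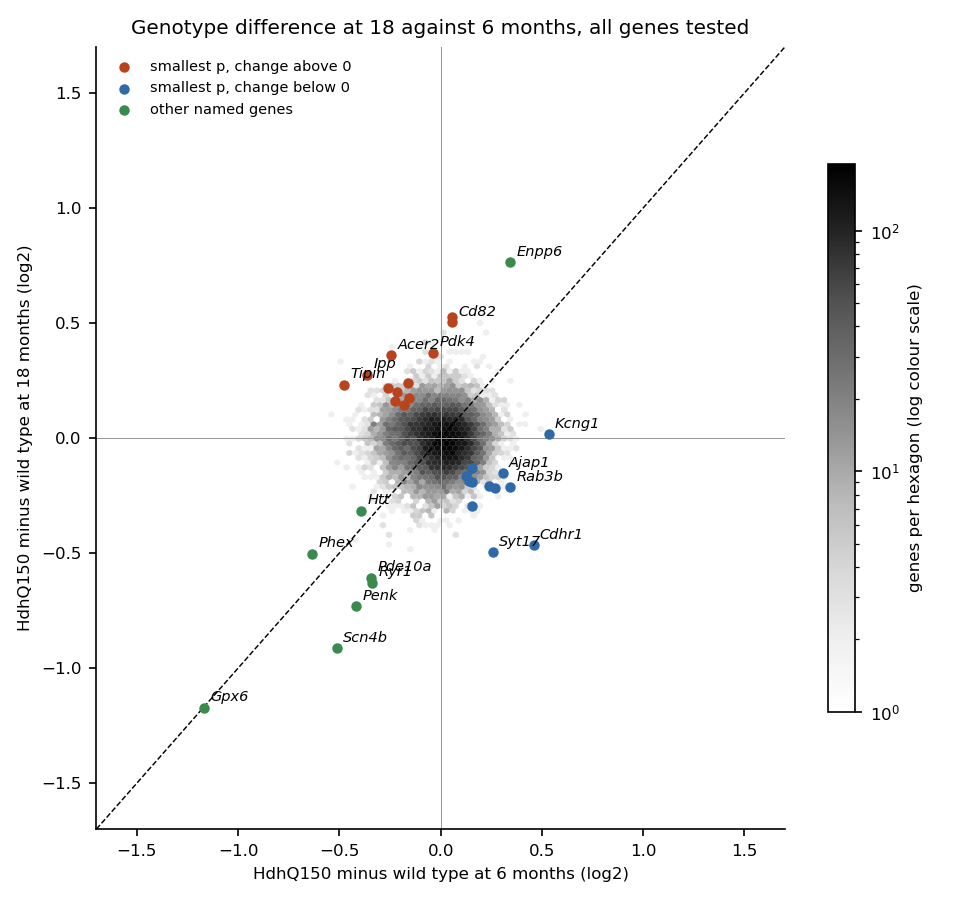
Genotype difference (HdhQ150 minus wild type, log2) at 6 months on the horizontal axis and at 18 months on the vertical axis for 19938 genes, shaded by the number of genes. On the dashed line the difference was the same at both ages; Gpx6 lies on it, Penk and Scn4b lie below it, and Kcng1 lies at 0.53 at 6 months and 0.02 at 18 months.

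The 12 genes with the smallest p above 0 had changes of 0.33 to 0.71 on the log2 scale, with limma's unadjusted p from 6.88e-05 to 0.000463 and an adjusted p of at most 0.598. None passed. In 10 of the 12 the difference was below 0 at 6 months and above 0 at 18 months. In all 12 the 12-month difference lay between those of 6 and 18 months. Their median difference was -0.20 at 6 months, 0.05 at 12 months (0.03 without WT-454, with all 12 still between) and 0.24 at 18 months. Since these genes were ranked by this contrast, the turn of sign describes how they were picked and carries no test. The same holds for the 12-month position, since a value near 0 falls between 6- and 18-month values picked to lie far apart.

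Ipp, which encodes a kelch-domain protein that binds actin, led them. At 6 months the wild-type mice had log2 levels of 6.74, 6.74, 6.75, 6.77 and 6.90, and the HdhQ150 mice 6.28, 6.40, 6.42, 6.51 and 6.52. At 18 months the wild-type mice had 6.27, 6.40, 6.46 and 6.61, and the HdhQ150 mice 6.45, 6.66, 6.73 and 6.99. All HdhQ150 mice were lower than all wild-type mice at 6 months, and the groups overlapped at 18 months with the HdhQ150 mice on the upper side. The change was 0.64 ± 0.14 (SE, n = 5, 5, 4 and 4; limma adjusted p = 0.471), and it was 0.66 without mouse 1023.

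Tipin, a partner of the replication fork protein Timeless, showed the widest change of the 12. Its 6-month levels were 6.08, 6.13, 6.17, 6.27 and 6.30 in wild type against 5.52, 5.72, 5.82, 5.87 and 5.91 in HdhQ150. Its 18-month levels were 5.74, 5.95, 6.01 and 6.09 in wild type against 5.84, 6.24, 6.30 and 6.34 in HdhQ150. The groups were apart at 6 months, and at 18 months 1 HdhQ150 mouse lay among the wild-type mice while the other 3 lay above them. The change was 0.71 ± 0.16 (limma adjusted p = 0.521) and 0.73 without mouse 1023.

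Zfp84, a zinc finger gene, was at 7.53, 7.63, 7.73, 7.75 and 7.75 in wild-type mice of 6 months and at 7.42, 7.42, 7.44, 7.53 and 7.55 in HdhQ150 mice. In 18-month mice its levels were 7.25, 7.34, 7.40 and 7.40 in wild type and 7.49, 7.51, 7.53 and 7.66 in HdhQ150. Here the HdhQ150 mice kept a similar level at both ages, and the wild-type mice of 18 months lay below those of 6 months. The groups overlapped at 6 months and not at 18 months, and the change was 0.41 ± 0.09 (limma adjusted p = 0.471).

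Cd82, a tetraspanin of the cell surface, had another shape. At 6 months it was at 8.67, 8.67, 8.77, 8.84 and 8.98 in wild type and at 8.80, 8.80, 8.86, 8.87 and 8.93 in HdhQ150. The 18-month levels were 8.78, 8.79, 8.90 and 8.94 in wild type and 9.17, 9.37, 9.37 and 9.50 in HdhQ150. The groups overlapped fully at 6 months and were apart at 18 months, where the difference of 0.50 passed the test (limma adjusted p = 0.000933). At 12 months, in other mice, Cd82 was also higher in HdhQ150, by 0.35 (limma adjusted p = 0.00398, and 0.0179 without WT-454). The change from 6 to 18 months, 0.45 ± 0.10, did not pass (limma adjusted p = 0.554). Prkcq, which encodes protein kinase C theta, had similar differences of 0.06 at 6 months and 0.52 at 18 months and a change of 0.47 ± 0.11 (limma adjusted p = 0.559). Its 12-month difference of 0.23 did not pass (limma adjusted p = 0.152). From 6 to 18 months its level changed by -0.25 in wild type and by 0.21 in HdhQ150.

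Laptm4a, a membrane protein of lysosomes, was the only gene of the 24 with the smallest p whose groups did not overlap at either age and lay in opposite orders. Wild-type mice of 6 months had 10.07, 10.09, 10.10, 10.11 and 10.16, and HdhQ150 mice 9.70, 9.86, 9.92, 9.94 and 10.01. Wild-type mice of 18 months had 9.89, 9.99, 10.02 and 10.04, and HdhQ150 mice 10.09, 10.13, 10.16 and 10.21. HdhQ150 mice were all lower at 6 months and all higher at 18 months, and the change was 0.39 ± 0.09 (limma adjusted p = 0.554). Over all genes, 6 (0.0301%) had groups apart at both ages in opposite orders, against 42 (0.211%) apart in the same order. The other 5 were Rap1gap (-0.35), which encodes a Rap1 GTPase activator, Lin7a (-0.33), Naa60 (-0.24), Adh5 (0.35) and Nudt11 (0.61), with the change in log2 after each. Their limma adjusted p lay between 0.598 and 0.608, so none passed. They were named after their values were seen.

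The other 7 of the 12 were Slc25a4, the mitochondrial carrier that exchanges ADP and ATP, Acer2, an alkaline ceramidase, Pdk4, a kinase that shuts off pyruvate dehydrogenase, Eif2ak2, the RNA-sensing kinase PKR, Bcap31, a chaperone of the endoplasmic reticulum, Dock5, an activator of Rac, and Prkcq. Pdk4 differed by -0.04 at 6 months and by 0.37 at 18 months, the latter past the test (limma adjusted p = 0.0265). Eif2ak2 differed by -0.26 and 0.22, and Slc25a4 by -0.18 and 0.14, neither past the test at either age. Acer2 rests on 1 probe set of 2 that disagreed: the brighter one gave a change of 0.60 and the dimmer one -0.45, and their mean gave 0.08.

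**Figure D2:**
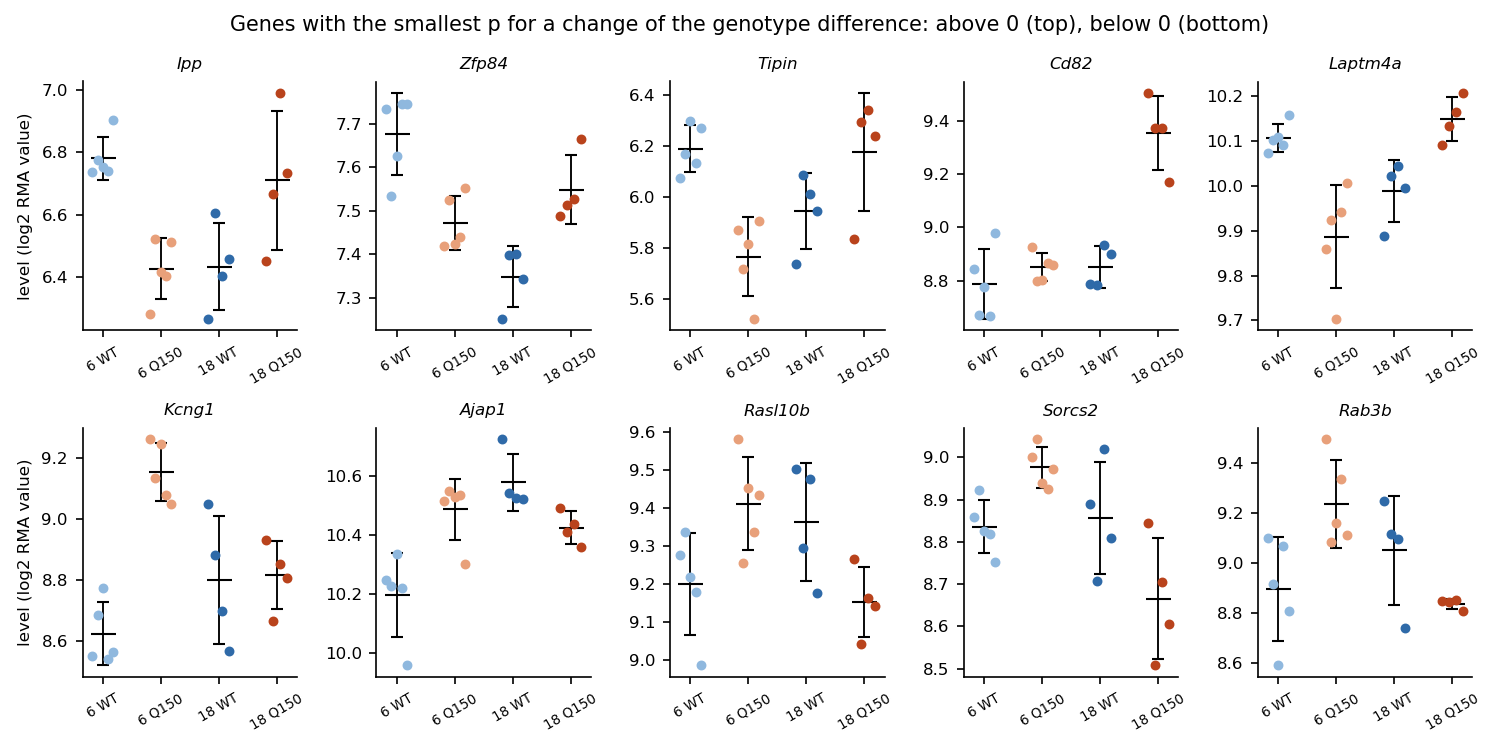
Log2 level (RMA value, vertical axis) in each mouse of the 4 groups for the 5 genes with the smallest p above 0 (top row) and below 0 (bottom row); each dot is 1 mouse, and the bars are the mean and SD. Laptm4a is lower in HdhQ150 at 6 months and higher at 18 months with no overlap, Cd82 is apart at 18 months alone, and Kcng1 is apart at 6 months alone.

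The 12 genes with the smallest p below 0 had changes of -0.28 to -0.93 on the log2 scale and unadjusted p from 5.96e-05 to 0.00124, and none passed by limma's adjusted p, which was at most 0.598. In 11 of the 12 the difference was above 0 at 6 months and below 0 at 18 months. Their median difference was 0.25 at 6 months, -0.05 at 12 months and -0.20 at 18 months. The 12-month difference lay between those of 6 and 18 months in 10 of the 12, with and without WT-454. As above, the ranking favours both patterns, and neither carries a test. A predicted gene or clone was passed over in this ranking 1 time.

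Kcng1, a modifier subunit of voltage-gated potassium channels, had the smallest p of all genes. Wild-type mice of 6 months had 8.54, 8.55, 8.57, 8.69 and 8.78, and HdhQ150 mice 9.05, 9.08, 9.13, 9.25 and 9.26. At 18 months wild-type mice had 8.57, 8.70, 8.88 and 9.05, and HdhQ150 mice 8.67, 8.81, 8.85 and 8.93. The groups were apart at 6 months and lay within each other's range at 18 months. The difference of 0.53 at 6 months passed (limma adjusted p = 0.000618), as did that of 0.53 at 12 months (5.64e-05), and the difference at 18 months was 0.02. The change was -0.52 ± 0.11 (limma adjusted p = 0.471) and -0.54 without mouse 1023.

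Ajap1, a junction-associated membrane protein, was at 9.96, 10.22, 10.22, 10.25 and 10.33 in wild-type mice of 6 months and at 10.30, 10.51, 10.53, 10.54 and 10.55 in HdhQ150 mice. The older mice had 10.52, 10.53, 10.54 and 10.72 in wild type and 10.36, 10.41, 10.44 and 10.49 in HdhQ150. At 6 months only mouse 1023 reached into the wild-type range, and at 18 months all HdhQ150 mice were lower. The change was -0.46 ± 0.10 (limma adjusted p = 0.471) and -0.50 without mouse 1023.

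Rasl10b, a small GTPase, was at 8.98, 9.18, 9.22, 9.28 and 9.34 in wild type and 9.25, 9.33, 9.43, 9.45 and 9.58 in HdhQ150 at 6 months. At 18 months it was at 9.18, 9.29, 9.48 and 9.50 against 9.04, 9.14, 9.16 and 9.26. The groups overlapped at both ages, with HdhQ150 on the upper side at 6 months and on the lower side at 18 months, for a change of -0.45 ± 0.11.

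Sorcs2, a sorting receptor that takes part in neurotrophin signalling, was at 8.75, 8.82, 8.83, 8.86 and 8.92 in wild type and 8.93, 8.94, 8.97, 9.002 and 9.04 in HdhQ150 at 6 months. At 18 months it was at 8.71, 8.81, 8.89 and 9.02 against 8.51, 8.61, 8.71 and 8.84. The groups were apart at 6 months and overlapped at 18 months. The change was -0.35 ± 0.09 (limma adjusted p = 0.598, as for Rasl10b).

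Rab3b, a GTPase of secretory vesicles, was at 8.59, 8.81, 8.92, 9.07 and 9.10 in wild type and 9.08, 9.11, 9.16, 9.33 and 9.49 in HdhQ150 at 6 months, and at 8.74, 9.09, 9.12 and 9.25 against 8.81, 8.84, 8.85 and 8.85 at 18 months. The groups overlapped at both ages, and the HdhQ150 mice of 18 months lay within 0.04 of each other. The change was -0.56 ± 0.14 (limma adjusted p = 0.598).

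The widest change below 0 among the 12 was that of Cdhr1, a cadherin-related protein, at -0.93 ± 0.24, with differences of 0.46 at 6 months and -0.47 at 18 months. Syt17, a synaptotagmin, followed with -0.75 ± 0.21, with differences of 0.26 and -0.50. Pitpnm2, a phosphatidylinositol transfer protein, differed by 0.16 at 6 months, by -0.36 at 12 months, where it passed (limma adjusted p = 0.0173), and by -0.30 at 18 months. The remaining 4 were Acad12 (-0.49), an acyl-CoA dehydrogenase, Tmem94 (-0.29), Tmem143 (-0.32) and Parp6 (-0.28), with the change in log2 after each. None had a genotype difference past the test at 6 or 18 months.

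The same change can be read as the age change in HdhQ150 less that in wild type. From 6 to 18 months, 1250 genes (6.27%) changed in wild type and 927 (4.65%) in HdhQ150. These counts moved with single mice: in wild type from 490 without WT-400 to 2437 without WT-1011, with 590 to 780 without WT-414, WT-431, WT-1018 or WT-1020, and in HdhQ150 from 421 without 1016 to 1438 without WT-454, with 518 without 1001 and 543 without 412. Of the 24 genes above, 6 changed with age in wild type (Ajap1, Acad12 and Tmem94 upwards and Ipp, Zfp84 and Pdk4 downwards) and 12 in HdhQ150, with 0 in both. Ranking by this contrast favours genes whose age changes differ between the genotypes. These counts thus describe how the genes were picked and carry no test. Cd82 rose by 0.50 with age in HdhQ150 against 0.05 in wild type, Tmem143 fell by 0.45 against -0.13, and Ajap1 rose by 0.42 in wild type against -0.04 in HdhQ150. A gene past the test in 1 genotype and not in the other is not shown to differ between them, and the test of that difference is the one that no gene passed.

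The genes called for genotype at 6 months were Gpx6, Htt, Phex and Insig1, all lower in HdhQ150, and Kcng1. Gpx6, a glutathione peroxidase, had the same difference at both ages, -1.17 and -1.17, and its change was -0.00 with a 95% interval from -0.40 to 0.40, of a sign that varied with the setting. Phex, a membrane peptidase, differed by -0.64 at 6 months and -0.50 at 18 months, a change of 0.13 ± 0.17. Insig1, which holds back the activation of cholesterol synthesis genes, differed by -0.54 at 6 months and -0.20 at 18 months, a change of 0.35 ± 0.15 (limma adjusted p = 0.61).

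Htt itself was at 9.11, 9.12, 9.15, 9.15 and 9.19 in wild-type mice of 6 months and at 8.73, 8.74, 8.75, 8.77 and 8.88 in HdhQ150 mice. At 18 months it was at 9.11, 9.17, 9.17 and 9.20 in wild type and at 8.61, 8.88, 8.91 and 8.99 in HdhQ150. All HdhQ150 mice were below all wild-type mice at both ages, and mouse 1023 was the highest of the HdhQ150 mice of 6 months. Htt is among the genes called at 6 months, so its level is no independent check of the labels. The change of 0.08 ± 0.09 had a 95% interval from -0.11 to 0.26, and it was 0.15 without HdhQ150 mouse 383 and 0.03 without mouse 412.

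At 18 months 27 genes passed, 11 higher in HdhQ150 and 16 lower. All 11 had a change above 0 (median 0.35) and all 16 a change below 0 (median -0.29). Selection at 18 months favours large 18-month values and so pulls the change the same way, and these counts are a description. Beside Cd82, Prkcq and Pdk4, the higher gene with the widest 18-month difference was Enpp6, an enzyme of newly formed oligodendrocytes, with differences of 0.34 at 6, 0.41 at 12 and 0.76 at 18 months and a change of 0.42 ± 0.15. Tmc3 differed by 0.31, 0.54 and 0.54, and Hipk2, a nuclear kinase, by 0.17, 0.26 and 0.33. Of the lower genes, Scn4b, a sodium channel beta subunit of striatal neurons, differed by -0.51 at 6 months and -0.91 at 18 months, and Ryr1, a calcium release channel, by -0.34 and -0.63 with -1.12 at 12 months. Their changes were -0.40 ± 0.19 and -0.29 ± 0.11, and none of the 27 passed for the change (limma adjusted p from 0.554 to 0.996).

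Genes called at 12 months rest on mice that are in neither the 6-month nor the 18-month groups. The 3 ages share 1 estimate of spread and 1 sex term, so these calls are not fully independent of the change. Such genes numbered 187 (0.938%). The 120 lower in HdhQ150 at 12 months had a median difference of -0.17 at 6 months and -0.22 at 18 months, and 81 of them (67.5%) had a change below 0, against 53.6% of all genes. The 67 higher had medians of 0.15 and 0.18, and 43 of them (64.2%) had a change above 0, against 46.4% of all genes. The median changes were -0.08 and 0.07, smaller than the standard error of a typical gene. Without WT-454 this turned around: 440 genes were called, 123 of the 287 lower genes (42.9%) had a change below 0 and 55 of the 153 higher genes (35.9%) a change above 0, with median changes of 0.03 and -0.04. Without WT-461, WT-508, WT-527 or the HdhQ150 mice 462 or 464 the count was 115 to 124, with 70.1% to 74.7% of the lower and 64.4% to 73.3% of the higher genes going the way they had gone with all mice. Without HdhQ150 mouse 453 the share of the higher genes was 50%. The direction of the change in genes called at 12 months therefore rests on WT-454.

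Among 10 genes of interest in the striatum, 7 had a change below 0 and 3 above. Penk was at 12.49, 12.53, 12.54, 12.63 and 12.81 in wild-type mice of 6 months and at 12.02, 12.05, 12.18, 12.27 and 12.39 in HdhQ150 mice. At 18 months it was at 12.11, 12.16, 12.33 and 12.41 in wild type and at 11.34, 11.34, 11.55 and 11.87 in HdhQ150. HdhQ150 mice were lower with no overlap at both ages, and the gap was -0.42 at 6 months, -0.51 at 12 months and -0.73 at 18 months. The change was -0.31 ± 0.13 with a 95% interval from -0.59 to -0.04 before adjustment, and it did not pass (limma adjusted p = 0.61).

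Pde10a, the phosphodiesterase concentrated in striatal projection neurons, had differences of -0.34, -0.49 and -0.61 at the 3 ages, groups apart at each age, and a change of -0.26 ± 0.12 (limma adjusted p = 0.61). Without mouse 1023 the changes were -0.26 for Penk and -0.20 for Pde10a. Drd2 differed by -0.21, -0.29 and -0.44 (change -0.24 ± 0.15) and Drd1 by -0.25, -0.33 and -0.46 (change -0.20 ± 0.15). Drd1 moved to -0.13 without HdhQ150 mouse 412 or 426 and to -0.32 without mouse 415. Ppp1r1b had a change of -0.13 ± 0.14, with -0.03 without WT-400 and -0.20 without mouse 1003, and 6 of the mice moved it by over 1.5 times. Pdyn had a change of -0.27 ± 0.19, with -0.15 without mouse 412 and -0.14 with array weights. For Cnr1, the cannabinoid receptor (-0.08), Tac1 (0.05) and Gfap, the astrocyte filament (0.16), the sign of the change varied with the setting. Apart from Penk and Pde10a, the 95% interval of each of the 10 included 0.

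**Figure D3:**
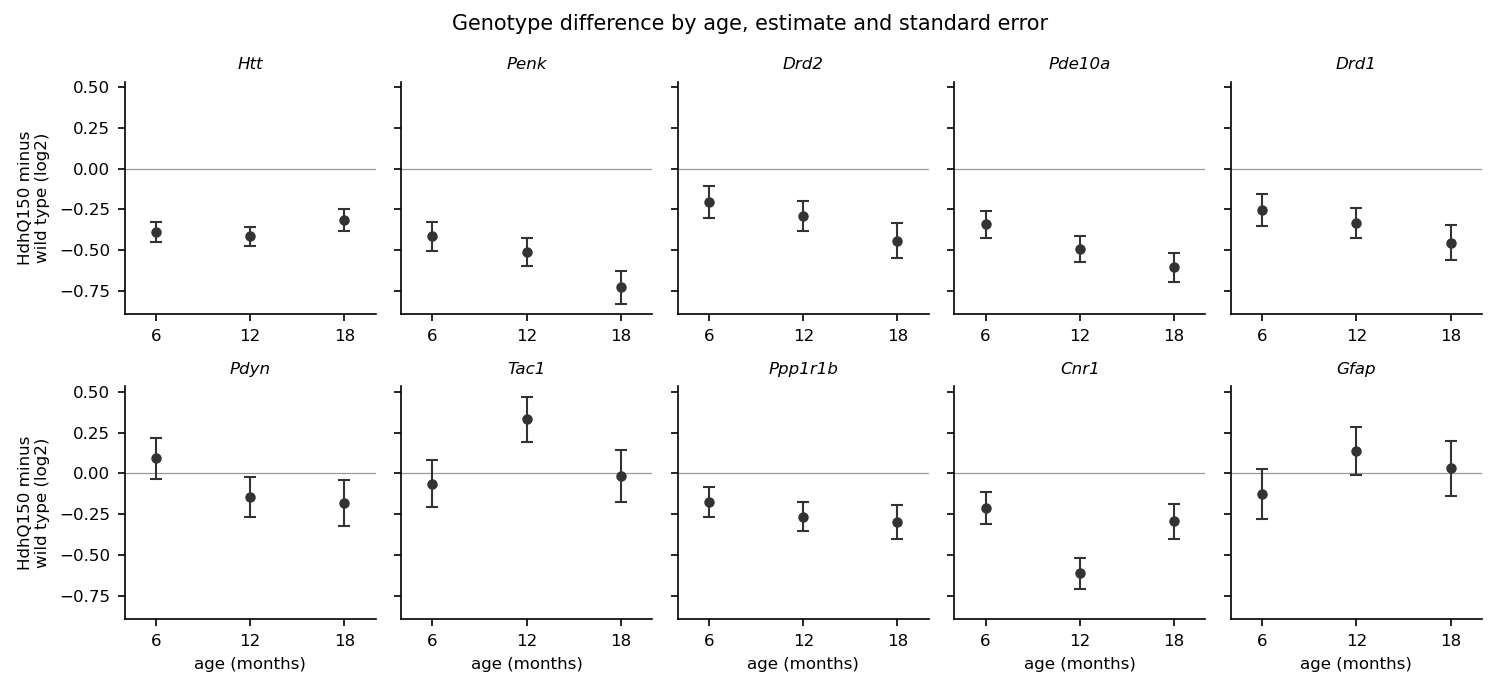
Genotype difference (HdhQ150 minus wild type, log2, vertical axis) at 6, 12 and 18 months (horizontal axis) for 10 genes; points are the estimates of the fit and bars their standard errors. Penk, Pde10a, Drd2 and Drd1 lie lower at each later age, while Htt lies between -0.32 and -0.42 throughout.

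The 37 gene lists held 818 entries, of which 718 were measured, and no list had a member past the test, in either direction. Medians of the change were above 0 in 18 lists and below 0 in 19. The lists were chosen with earlier results of these data known, and some hold genes called here, such as Penk and Ryr1 among the projection neuron markers. Shares of a list set against those of all genes are therefore descriptions and carry no test. They are read against a median of -0.01 over all genes, 46.4% above 0, and unadjusted p under 0.05 for 4.98% above 0 and 3.19% below. Brighter genes had higher changes: in 4 classes of equal size by mean level, from dimmest to brightest, the median change was -0.06, -0.05, 0.03 and 0.03. The share above 0 was 33.4%, 38%, 57.9% and 56.3%. An unadjusted limma p under 0.05 with a change above 0 was held by 57, 165, 398 and 373 genes, of 4984 or 4985 per class. For lists of bright genes the shares over all genes are thus too low a baseline above 0. The medians of the lists named next kept their sign when the median of each gene's class was taken off, except for the heat shock list.

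Of the striatal neuron lists, markers of projection neurons had a median difference of -0.13 at 6 months, -0.23 at 12 months and -0.25 at 18 months, and a median change of -0.16. Of 30 measured, 27 had a change below 0, and 7 of these had an unadjusted p under 0.05 with values from -0.23 to -0.40. Among them were Bcl11b, a transcription factor of projection neurons (-0.31 ± 0.12), Ptpn5, the striatal phosphatase STEP (-0.23 ± 0.10), Ryr1 and Penk. At 6 months 4 of 30 were lower in HdhQ150 with no overlap, against 1.35% of all genes, and at 18 months 8 of 30, against 1.50%. Mean levels of the list, each gene centred over the 29 mice, were -0.01, -0.01, 0.05, 0.07 and 0.17 in wild type and -0.32, -0.19, 0.00, 0.01 and 0.06 in HdhQ150 at 6 months. At 18 months they were -0.25, -0.16, -0.12 and 0.02 in wild type and -0.51, -0.48, -0.46 and -0.25 in HdhQ150. The groups overlapped at 6 months, and at 18 months the highest HdhQ150 mouse met the lowest wild-type mouse at -0.25. Many of these genes were lowest in the same mice, so the 27 are not 27 separate observations.

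Indirect pathway markers, among them Penk, Drd2 and the transcription factor Sp9 (-0.24 ± 0.14), had a median change of -0.19, with 4 of 11 above 0. An unadjusted limma p under 0.05 was held by 1 member above 0 and 1 below. Unlike the differences of Penk and Drd2, the median difference of the list did not widen with age: it was -0.20, -0.15 and -0.08 at 6, 12 and 18 months. At 6 months 2 of 11 were lower in HdhQ150 with no overlap, against 1.35% of all genes, and at 18 months 5 of 11, against 1.50%. The median change was -0.06 with array weights and -0.10 without mouse 1023, -0.08 without 383, -0.12 without 412 and -0.11 without WT-1011. Direct pathway markers had a median of -0.01 that changed sign between settings, with Chrm4, a muscarinic receptor, at -0.20 ± 0.11. Striatal interneuron markers had a median change of -0.12 with 5 of 17 above 0, which was -0.06 without HdhQ150 mouse 1017 and -0.08 without WT-431. Nos1, the neuronal nitric oxide synthase (-0.34 ± 0.12), Lhx6, a transcription factor of interneurons (-0.32 ± 0.15), and Sst, somatostatin (-0.29 ± 0.15), led that list. Their differences were 0.17, 0.26 and 0.33 at 6 months and -0.17, -0.07 and 0.04 at 18 months, so the change was split evenly for Nos1, and for Lhx6 and Sst the 6-month side held most of it. Groups of no interneuron marker were apart at either age.

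Among glia, mature oligodendrocyte genes had a median difference of -0.07 at 6 months and 0.09 at 18 months, and a median change of 0.23, with 16 of 17 above 0 and 5 of these at an unadjusted p under 0.05. Cnp, a myelin enzyme, had a change of 0.44 ± 0.13, Mal, a myelin proteolipid, 0.38 ± 0.13, Aspa, which releases acetate from N-acetylaspartate, 0.56 ± 0.21, and Mog, a myelin surface protein, 0.25 ± 0.12. At 6 months 4 of 17 were lower in HdhQ150 with no overlap, against 1.35% of all genes, and at 18 months 3 of 17 higher, against 2.20%. Mean levels of the list were -0.17, -0.13, -0.10, -0.04 and 0.21 in wild type and -0.31, -0.26, -0.16, -0.12 and -0.12 in HdhQ150 at 6 months, and -0.06, 0.05, 0.11 and 0.15 in wild type and -0.02, 0.11, 0.26 and 0.26 in HdhQ150 at 18 months. The groups overlapped at both ages. The median ran from 0.10 with array weights to 0.34 in labelled females alone. Precursor and newly formed oligodendrocyte genes had a median of 0.13, with 13 of 18 above 0, led by Enpp6, and 5 of 18 were higher in HdhQ150 with no overlap at 18 months, against 2.20% of all genes.

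Microglia markers ran the other way, with a median difference of 0.12 at 6 months and 0.01 at 18 months and a median change of -0.10, and 7 of 22 were above 0. Trem2, a lipid receptor of microglia (-0.31 ± 0.12), Selplg (-0.30 ± 0.13) and the complement subunit C1qb (-0.42 ± 0.20) lay below 0 at an unadjusted p under 0.05, and Ptprc, the leukocyte antigen CD45, above 0 (0.22 ± 0.10). At 6 months 4 of 22 were higher in HdhQ150 with no overlap, against 1.84% of all genes, and at 18 months 1 of 22, against 2.20%. Complement and antigen presentation genes, which share C1qb, had a median of -0.09, with 3 of 12 above 0, and the median was -0.21 without HdhQ150 mouse 383, -0.19 without WT-431 and -0.04 without WT-400. Interferon response genes had a median of 0.00 whose sign varied. Astrocyte markers had a median difference of -0.07 at 6 months and 0.01 at 18 months. Their median change was 0.06 with 12 of 17 above 0, down to 0.03 without HdhQ150 mouse 426, WT-431 or WT-1018 and 0.04 without WT-400 or mouse 1003. Unlike the median of the list, S100b, a calcium-binding protein, differed by 0.22 at 6 months and 0.47 at 18 months, groups apart at both, a change of 0.25 ± 0.12. At 6 months 1 of 17 was higher in HdhQ150 with no overlap, against 1.84% of all genes, and at 18 months 2 of 17, against 2.20%.

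**Figure D4:**
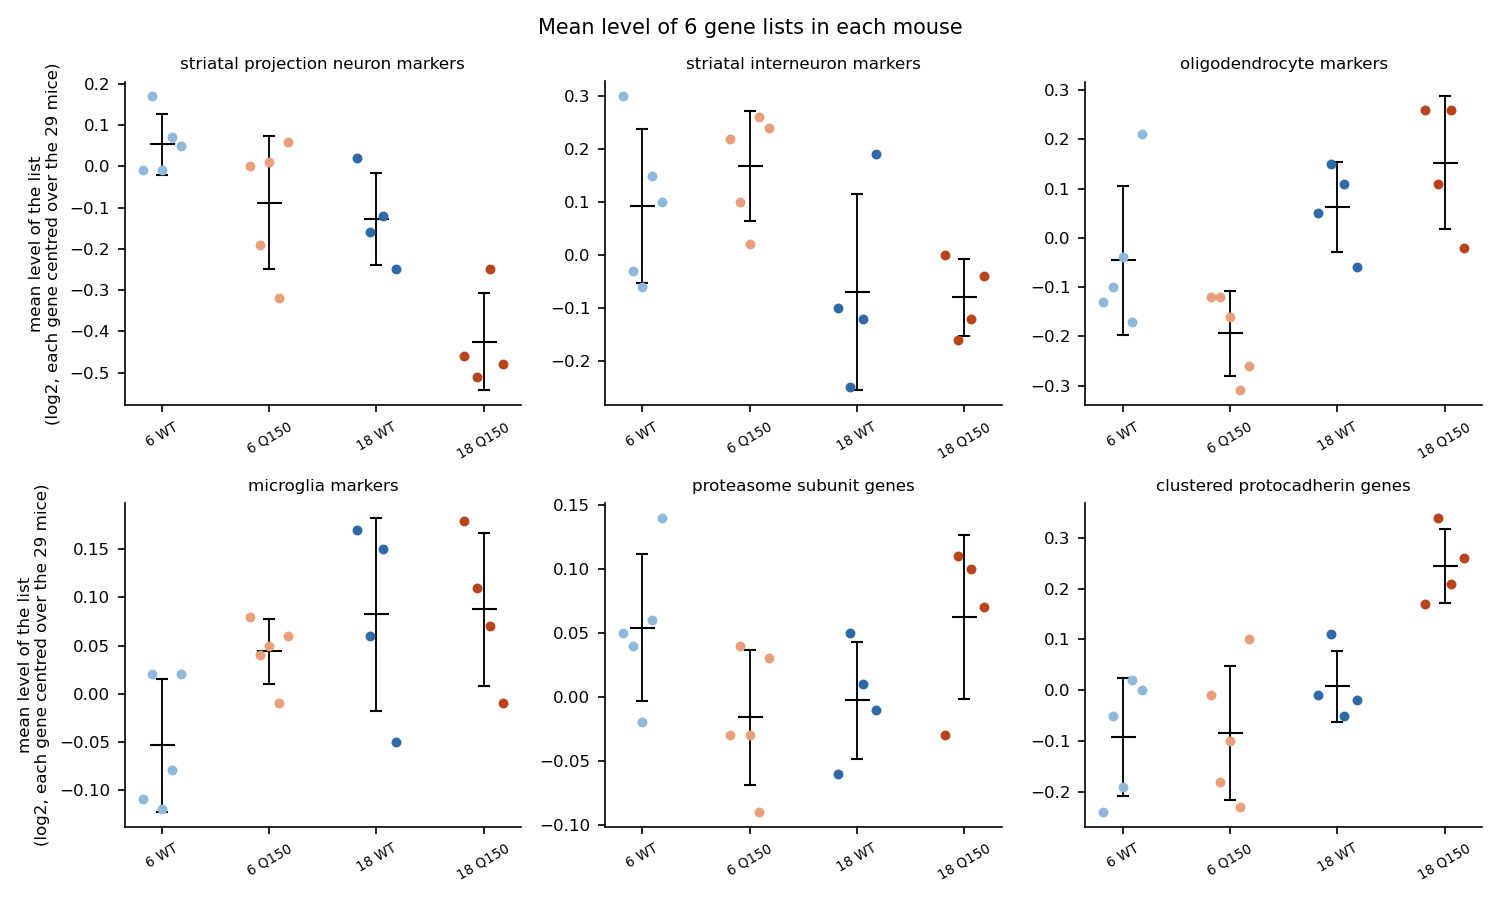
Mean level of 6 gene lists in each mouse (vertical axis, log2, each gene centred over the 29 mice) in the 4 groups; each dot is 1 mouse and the bars are the mean and SD. Protocadherin genes are apart at 18 months, with HdhQ150 mice from 0.17 to 0.34 and wild-type mice from -0.05 to 0.11, and the other 5 lists overlap or meet at both ages.

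Clustered protocadherin genes, adhesion proteins of neurons that all came from the beta cluster here, had a median difference of -0.01 at 6 months, 0.23 at 12 months (0.14 without WT-454) and 0.23 at 18 months. Their median change was 0.26, with 21 of 22 above 0 and 4 at an unadjusted p under 0.05. Pcdhb21 had a change of 0.50 ± 0.15, Pcdhb9 of 0.45 ± 0.21, Pcdhb12 of 0.35 ± 0.15 and Pcdhb22 of 0.32 ± 0.14. At 18 months 9 of 22 were higher in HdhQ150 with no overlap, against 2.20% of all genes, and at 6 months 1 of 22, against 1.84%. Mean levels of the list were -0.24, -0.19, -0.05, -0.00 and 0.02 in wild type and -0.23, -0.18, -0.10, -0.01 and 0.10 in HdhQ150 at 6 months. At 18 months they were -0.05, -0.02, -0.01 and 0.11 in wild type and 0.17, 0.21, 0.26 and 0.34 in HdhQ150. The genotypes were interleaved at 6 months and apart at 18 months. These genes are similar in sequence, so probe sets may read more than 1 of them, and 22 members are not 22 separate observations.

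Lists of protein turnover and metabolism differed in their share of changes above 0. In the 2 brighter classes of all genes this share was 57.9% and 56.3%. Proteasome (77.4%), autophagy and lysosome (77.3%), ribosomal (76.3%) and respiratory chain genes (66.7%) lay above it. Cholesterol synthesis (57.1%) and heat shock genes (58.8%) lay near it, and unfolded protein response genes (44.4%) below it. Proteasome subunits had a median difference of -0.14 at 6 months and 0.07 at 18 months and a median change of 0.20, with 24 of 31 above 0 and 6 at an unadjusted p under 0.05. Psma3 (0.44 ± 0.14), Psma5 (0.31 ± 0.11), Psmd1 (0.29 ± 0.12) and Psmd6 (0.44 ± 0.18) led them. At 6 months 2 of 31 were higher in HdhQ150 with no overlap, against 1.84% of all genes, and 1 of 31 lower, against 1.35%, and at 18 months 0 of 31 had groups apart, against 2.20% higher and 1.50% lower. Mean levels of the list were -0.02, 0.04, 0.05, 0.06 and 0.14 in wild type and -0.09, -0.03, -0.03, 0.03 and 0.04 in HdhQ150 at 6 months, and from -0.06 to 0.05 and from -0.03 to 0.11 at 18 months. Cytosolic ribosomal protein genes had a median of 0.08 with 29 of 38 above 0, autophagy and lysosome genes 0.08 with 17 of 22, and respiratory chain and ATP synthase genes 0.05 with 32 of 48. The ribosomal median was 0.05 without HdhQ150 mouse 415 and 0.13 without mouse 1003 or WT-1011, and the respiratory chain median 0.03 without WT-431 and 0.08 without mouse 1003. Sdha, a subunit of succinate dehydrogenase, had a change of 0.34 ± 0.10, and Lamp2, a lysosomal membrane protein, of 0.42 ± 0.17. Cholesterol synthesis genes had a median of 0.06 (0.01 without WT-431 and 0.10 without WT-1004) with 12 of 21 above 0, and 4 had an unadjusted p under 0.05, among them Lss (0.28 ± 0.10), Hsd17b7 (0.40 ± 0.15) and Cyp51 (0.25 ± 0.10). Heat shock genes (0.02) and unfolded protein response genes (-0.02) had medians whose sign varied with the setting.

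Channel and receptor lists had medians near 0 with single genes far from it. Medians of the calcium signalling, glutamate receptor and GABA receptor lists varied in sign with the setting. Values above 0 were held by 12 of 25, 9 of 21 and 5 of 13 of their genes, and by 13 of 40 potassium channel genes. The genes named next all lay below 0, while 1 calcium signalling gene lay above 0 at an unadjusted limma p under 0.05. Potassium channel genes had a median of -0.05, from -0.11 without WT-431 to -0.02 without HdhQ150 mouse 383, and beside Kcng1 the channel-interacting proteins Kcnip2 (-0.36 ± 0.12) and Kcnip3 (-0.44 ± 0.14) lay below 0. Gabra2, a GABA receptor subunit, had differences of -0.14 at 6 months and -0.81 at 18 months, a change of -0.67 ± 0.23. Grm4, a metabotropic glutamate receptor, had a change of -0.35 ± 0.11, and Camk2b and Hpcal4, both of calcium signalling, of -0.30 ± 0.09 and -0.42 ± 0.15. The limma adjusted p was 0.598 for Camk2b and 0.608 for Gabra2, Grm4, Kcnip2 and Hpcal4.

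**Figure D5:**
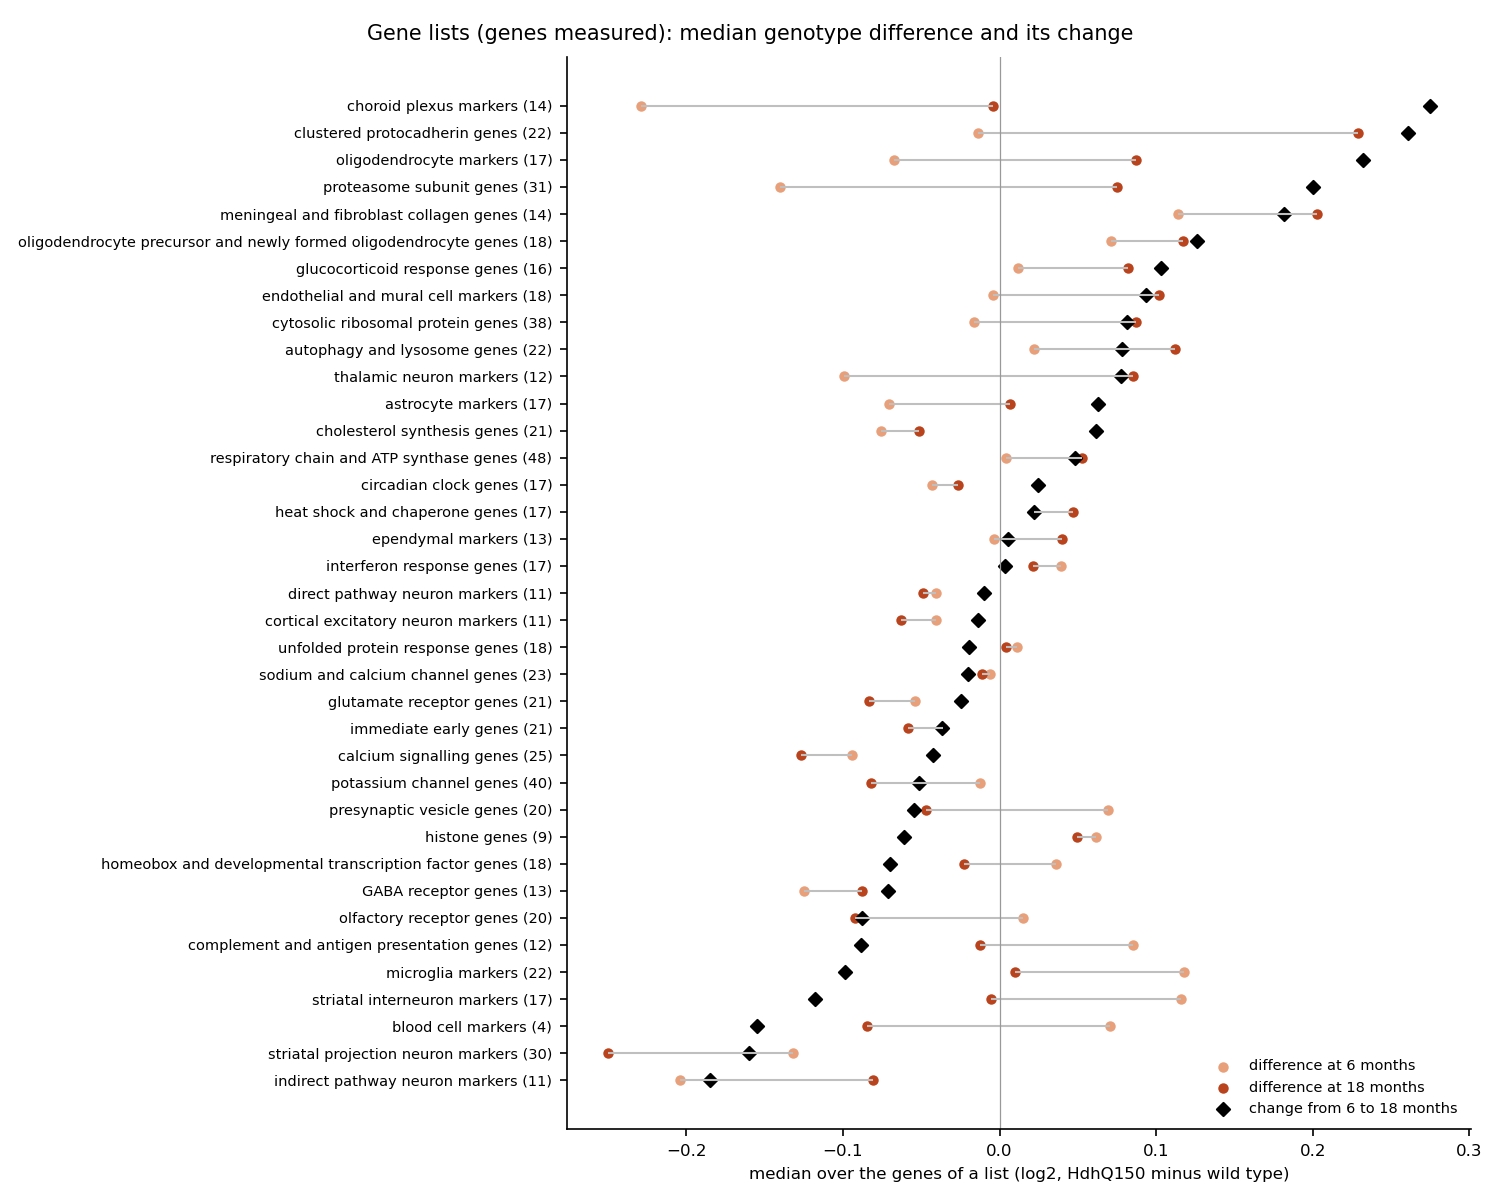
Median genotype difference at 6 and 18 months and median change between them (horizontal axis, log2, HdhQ150 minus wild type) for 37 gene lists, with the number of genes measured in brackets. The median change is the median of the genes' own changes and need not equal the gap between the other medians; protocadherin and oligodendrocyte genes stand at 0.26 and 0.23, and projection neuron markers at -0.16.

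Markers of neighbouring tissue varied between mice within groups. The choroid plexus list had a median change of 0.28, with 12 of 14 above 0, and mean levels from -0.38 to 1.14 in wild type and -0.30 to 0.93 in HdhQ150 at 6 months, against -0.22 to -0.04 and -0.24 to 0.25 at 18 months. The median was 0.06 without WT-1020, 0.09 without WT-1002, 0.17 without WT-401, 0.18 without HdhQ150 mouse 1003, 0.44 without WT-1011 and 0.47 without mouse 1017. Its defining gene Ttr had a change of 1.06 ± 1.35, less than its own standard error. Cortical excitatory markers ranged from 0.01 to 0.80 and from -0.13 to 0.62 at 6 months and from 0.18 to 0.91 and from 0.00 to 0.87 at 18 months, with a median change of -0.01 of varying sign. Thalamic markers had a median of 0.08, endothelial and mural markers 0.09, meningeal genes 0.18 and blood markers -0.16 over 4 genes. Without HdhQ150 mouse 383 these were 0.01 for thalamic, 0.02 for endothelial and mural and 0.05 for meningeal genes, and without WT-1018 they were 0.06 for endothelial and mural and 0.09 for meningeal genes. Single mice moved the thalamic median by over 1.5 times in 10 cases, up to 0.22 without WT-431. Log2 levels on this array have no zero, so absence of a tissue cannot be read from them, and the part of these tissues in the changes of the other lists was not tested.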

How the data were processed

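Per the submitters' processing notes, RMA in Affymetrix Expression Console produced the deposited log2 levels, without a stated version or options. RNA was extracted with TRIzol and chloroform, per the labels' protocols. Of 35556 probe sets, 21789 had 1 gene symbol in the platform annotation, and 21698 of these took a current name from RefSeq (GRCm38.p6, matched by Entrez ID). The brightest probe set stood for a gene (999 genes had several), which left 19938.

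All 29 arrays entered 1 linear model per gene, with 6 group means and labelled sex (22 residual degrees of freedom), fitted in limma 3.58.1 (R 4.3.3) with a trended eBayes prior. P-values are two-sided, adjusted by Benjamini and Hochberg over all genes, with a threshold of 0.05 and no filter. Intervals are at 95%. Errors after ± are standard errors. The number of arrays limits the precision. The fit was tested on simulated data.

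The text names the 12 genes of smallest p in each direction (predicted genes, clones, Xist, Tsix and Y-linked genes passed over), up to 5 per direction called at 6 or 18 months, 10 genes of interest and up to 4 members of lists. The comparison, lists and rule were chosen with earlier results of these data known. No sequence is shown, since no gene passed.

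Alternatives were other arrays in the fit, sex terms, probe sets, dim-gene filters, array weights, variance priors, scalings, and leaving out each mouse.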

Additional observations from a re-analysis of the deposited data

Results flagged for a closer look

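In 19 of 316 groups of 4 or 5 mice (6.01%), 1 mouse lay far outside the others by Dixon's gap rule, over the 42 named genes and 37 lists. Chance alone flags about 1 group in 20.

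HdhQ150 mouse 1023 of 6 months accounted for 3: Ajap1 at 10.30 against 10.51 to 10.55 in the other mice of its group, Htt at 8.88 against 8.73 to 8.77, and Ryr1 at 7.71 against 7.50 to 7.55. In each it lay on the side of the wild-type mice of 6 months, and its Htt was still below all of them. Without it the change from 6 to 18 months was -0.50 for Ajap1, 0.10 for Htt and -0.26 for Ryr1.

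Among the other mice of 6 months, Pdyn was at 7.95 in HdhQ150 mouse 1003 against 8.25 to 8.37. In wild type, Drd1 was at 9.95 in WT-1004 against 9.69 to 9.76, Eif2ak2 at 6.21 in WT-1018 against 5.91 to 5.98, Ipp at 6.90 in WT-1020 against 6.74 to 6.77, Tmem94 at 9.35 in WT-1020 against 9.52 to 9.57, and Tmem143 at 7.80 in WT-1011 against 7.57 to 7.59. At 18 months, Ajap1 was at 10.72 in mouse WT-400 against 10.52 to 10.54. In HdhQ150, mouse 426 had Pdk4 at 7.82 against 7.67 to 7.69 and Rab3b at 8.81 against 8.84 to 8.85, and mouse 415 had Syt17 at 7.98 against 8.29 to 8.34.

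Among lists, HdhQ150 mouse 383 of 18 months had the meningeal list at 0.79 against 0.07 to 0.13 and the complement list at 0.44 against 0.01 to 0.08. The choroid plexus list was at 0.93 in HdhQ150 mouse 1017 of 6 months against -0.30 to 0.00, and the blood list at -0.16 in HdhQ150 mouse 1016 against -0.06 to -0.03. The heat shock list was at -0.01 in mouse WT-401 of 18 months against -0.13 to -0.11, and the homeobox list at 0.06 in mouse WT-1011 of 6 months against -0.08 to -0.04.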

How the results depend on the processing

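The count of genes whose genotype difference changed from 6 to 18 months was 0 in every setting but array weights, which gave 6, and leaving out 1 mouse gave 0 to 0. The smallest adjusted p ranged from 0.0294 to 0.92 over the settings. The 6-month genotype count of 5 became 8 with only the 18 arrays, 3 with no sex term, with mouse 1023 as male, with all probe sets, with the brighter genes and with median centring, 2 in labelled females, 1330 with array weights and 868 without mice 1023 and WT-454 together, and 3 to 188 leaving out 1 mouse. The 12-month count of 187 became 656 with array weights, 296 with renewed quantile normalization, 167 higher and 341 lower genes without mice 1023 and WT-454 together, and 115 to 440 leaving out 1 mouse. The 18-month count of 27 became 43 without mice 1023 and WT-454, and 15 to 41 leaving out 1 mouse. The wild-type age count of 1250 became 708 in labelled females, 2375 with all probe sets, 694 with the brighter genes, 2395 with array weights, 710 with renewed quantile normalization and 490 to 2437 leaving out 1 mouse. The HdhQ150 age count of 927 became 1601 with all probe sets, 2489 with array weights, 1646 without both mice and 421 to 1438 leaving out 1 mouse. The cause was not tested. Of 42 named genes 38 kept the sign of their change in every setting, and of 37 list medians 25 did; removing the median of each gene's class of brightness, and leaving out mice for the 12-month values, were chosen after seeing the data. No paired analysis was possible because the mouse numbers differ between groups. Both 18-month groups are female. What can be said of a change tied to sex in the 6-month mice is therefore limited to the sex term and the labelled females. Both count mouse 1023 as female, although its Xist and Y-linked levels lay with the males, so neither fully separates the sexes. Entering it as male and leaving it out were further settings.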

Other observations

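Changes of a log2 size of 1 or more were found in 11 genes, named here after their values were seen, and none passed the test. Ndst4, an enzyme that modifies heparan sulfate, had the widest, -1.74 ± 0.54, with differences of 0.79 at 6 months and -0.96 at 18 months (limma adjusted p = 0.608). Ogn, the proteoglycan osteoglycin, differed by -0.29 at 6 months and 0.94 at 18 months (1.22 ± 0.35). The mean level of the meningeal list, which holds Ogn, was 0.79 in HdhQ150 mouse 383 of 18 months against 0.07 to 0.13 in the other 3, and the part of that mouse in the value of Ogn was not tested. Rrs1, a ribosome assembly factor, differed by -0.50 and 0.51 (1.01 ± 0.27), and the histone gene H2ac4 by 0.92 and -0.27 (-1.19 ± 0.35). Small noncoding RNAs made up several of the rest: Snord49b (-1.41 ± 0.63), Snord49a (-1.02 ± 0.49) and Rny1 (-1.33 ± 0.60) had differences of 1.45, 1.20 and 1.53 at 6 months. The 11 also held n-R5s136, Prl, Ttr and Xist. The value for Xist, 1.24 ± 0.84, includes mouse 1023, whose Xist was low under a female label.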
